A study of Homo sapiens
Mus musculus with 2 samples.

Results

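The endoplasmic reticulum (ER) chaperones and folding enzymes were followed in single cells of a mixture of lymphocyte lines. The set is 15 genes, each taken in human and in mouse, so 30 of the 29259 gene identifiers in the tables were described. They were taken as a list of named genes, with no threshold on a measured value, but were chosen with earlier results of these data known. All 30 had rows in the tables, and all 15 mouse genes passed the filter on low counts in the comparison of mouse cells.

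Proteins that enter the secretory pathway fold in the lumen of the ER, where HSP70 and HSP90 chaperones, the lectins calnexin and calreticulin, protein disulfide isomerases and prolyl isomerases act on them. When unfolded protein accumulates, the sensors IRE1, PERK and ATF6 start the unfolded protein response (UPR), in which the transcription factors XBP1, ATF4 and the processed form of ATF6 induce many of these genes. Antibody-secreting cells of the B lineage are known for an enlarged ER and need XBP1 for it, while T lymphocytes carry less of this machinery.

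UMI counts, in which PCR copies of a molecule are counted once, were analysed from 2 Drop-seq libraries, a method that pairs cells with barcoded beads in droplets and counts transcripts at their 3′ ends. Each library was made from an equal mixture of the same 4 lines with no treatment named, one loaded at a concentration of 150 (library 150) and the other of 300 (library 300) cells per µl. The human lines, Jurkat and TALL-104, are both of leukemic T cells. The mouse lines are EL4, a T lymphoma, and IVA12, a B hybridoma, that is, an antibody-secreting fusion of a B cell with a myeloma cell. Each concentration had 1 library, and the labels give no separate cultures. In the fit with the library as a block, p-values between cell classes therefore measure only how far the class ratio differs between these 2 libraries.

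Barcodes with at least 1000 UMIs, of which at least 90% were of 1 species, were kept as cells. Mouse cells were clustered without the 15 genes and without the ER gene lists used below, and clusters were named from marker genes. T-like cells numbered 41 and 347 in libraries 150 and 300, B-like cells 27 and 222, and human cells 87 and 318. Median depths were 12430 and 8157 UMIs in T-like cells, 14775 and 8517.5 UMIs in B-like cells, and 6383 and 3713.5 UMIs in human cells. A further 17 and 116 mouse cells fell in shallow clusters that were left unnamed. The libraries shared 1 barcode, which was not a cell in both.

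The classes were then described by markers. The mouse T and B cell lists, without Jchain, had also named the mouse groups. Their sums therefore restate the naming and do not check it. Summed mouse T cell markers (16 of 18 listed) stood at 3841 and 4263 CPM (UMIs per 1000000 UMIs of the cell's species) in T-like cells and at 49.3 and 141 CPM in B-like cells. Summed B cell markers (12 of 16 listed) stood at 101 and 189.7 CPM in T-like cells and 6366 and 6124 CPM in B-like cells, and the 7 plasma cell markers at 85.4 and 159 against 5312 and 5030.4 CPM. In B-like cells Pax5 had 0 UMIs in both libraries and Cd79a 0 and 2, while Cd79b, Ms4a1, Sdc1 and the J chain gene Jchain were present. Irf8 and Cd22, also on the B cell list, went the other way. Irf8 had 4 and 21 UMIs in T-like cells against 0 and 0 in B-like cells, and Cd22 had 1 and 9 against 0 and 1. Of the T cell list, Cd6 went the other way, with 0 and 3 UMIs in T-like cells against 1 and 42 in B-like cells. Cd2, also on that list, stood at 12.0 and 34.1 CPM in T-like cells against 11.2 and 22.5 CPM in B-like cells. Jchain gave 2097 of 2839 and 9123 of 13340 of the B cell marker UMIs in B-like cells. It is on the plasma cell list too, where it gave 2097 of 2369 and 9123 of 10957 UMIs, so the sums are not independent. Xbp1, which is also on an ER gene list below, gave a further 192 and 1261 of the plasma cell marker UMIs. The J chain gene, which marks antibody-secreting cells, had 22.2 and 66.3 CPM in T-like cells against 4702 and 4188 CPM in B-like cells. Human cells carried T cell markers (3367 and 3649 CPM over 13 of 15 listed) and little of the 9 cytotoxic markers that would mark TALL-104 (42.2 and 40.0 CPM), with GZMB and GNLY at 0 UMIs. Of 9 human B cell markers, 5 were listed, and their sum was 9.73 and 21.9 CPM.

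The first question was how the ER folding genes differed between the mouse B hybridoma and the mouse T line. In B-like cells 12 of the 15 genes were higher, 1 (Pdia3) was lower, and 2 (Canx and Dnajb9) did not pass the test, by edgeR's quasi-likelihood test over all 8859 genes tested. Over all genes tested, 56.7% were called in either direction and 27.2% were called higher in B-like cells. The median log2 fold change, B-like over T-like, was 0.61 over the 15 genes and -0.04 over all genes tested. The fit compared 4 sums of UMIs, with the library as a block. Without that block 7 of the 15 were called higher in B-like cells, beside 18.8% of all genes. Because earlier results of these data were known when the genes were chosen, these counts are a description and no independent support.

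**Figure D1:**
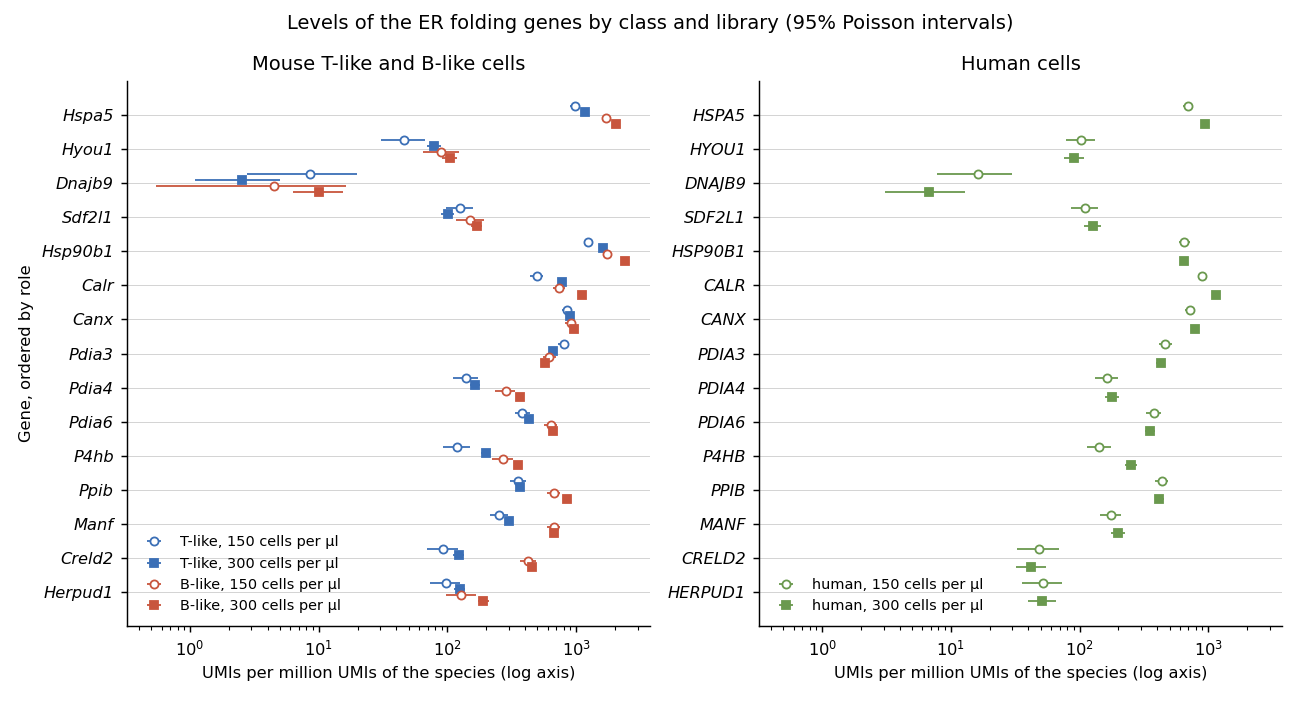
Levels of the 15 genes in CPM on a log axis, in mouse T-like and B-like cells (left) and in human cells (right). Open circles are library 150 and filled squares library 300, with 95% Poisson intervals, and Creld2 shows the widest gap between the mouse classes among the called genes (log2 fold change 1.93).

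Summed over the 15 genes, ER folding transcripts took 59.7 (95% Poisson interval 57.7 to 61.7) of every 10000 mouse UMIs in T-like cells in library 150 and 70.1 (95% Poisson interval 69.2 to 71.0) in library 300. In B-like cells they took 90.1 (95% Poisson interval 87.3 to 92.9) and 109 (95% Poisson interval 108 to 111). The ratio of B-like to T-like was 1.51 (1.44 to 1.58) in the first library and 1.56 (1.53 to 1.59) in the second. Both B-like sums lay above both T-like sums. These intervals cover counting error only.

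HSPA5 (BiP, identifier mm10_ENSMUSG00000026864 in mouse) is the HSP70 chaperone of the ER lumen and keeps the UPR sensors inactive in unstressed cells. In each pair of values library 150 comes first. Hspa5 stood at 980.0 and 1170.5 CPM in T-like cells and at 1693 and 2054 CPM in B-like cells, so both B-like values were above both T-like values. The fit gave a log2 fold change of 0.76 ± 0.08 (SE) with adjusted p = 3.43e-19, a 1.69-fold higher level in B-like cells. By library the log2 ratio was 0.79 (95% interval 0.63 to 0.95) in library 150 and 0.81 (0.75 to 0.87) in library 300.

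Some partners of BiP were called as well. Hyou1 (mm10_ENSMUSG00000032115), a large HSP70-like protein that exchanges nucleotide on BiP, stood at 46.1 and 78.9 CPM in T-like cells and at 89.7 and 104 CPM in B-like cells. Its log2 fold change was 0.48 ± 0.19 (SE) with adjusted p = 0.0210, and by library the log2 ratio was 0.96 (95% interval 0.22 to 1.72) in library 150 and 0.40 (0.14 to 0.67) in library 300. Sdf2l1 (mm10_ENSMUSG00000022769), which binds ER J-domain proteins, stood at 125 and 100.4 CPM in T-like cells and at 150.2 and 168 CPM in B-like cells. The log2 fold change of Sdf2l1 was 0.57 ± 0.15 (SE) with adjusted p = 4.48e-04, and the counting interval in library 150, -0.23 to 0.77, included 0. Neither call held without the block or by DESeq2.

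Dnajb9 (mm10_ENSMUSG00000014905), the J-domain cochaperone that brings BiP to IRE1, was barely counted. It had 5 and 8 UMIs in T-like cells and 2 and 22 UMIs in B-like cells. The direction differed between the libraries, with a log2 ratio of -0.93 (95% interval -4.32 to 1.68) in library 150 and 2.00025 (0.78 to 3.38) in library 300. The fitted log2 fold change of 1.28 ± 0.63 (SE) did not pass (adjusted p = 0.0707).

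Hsp90b1 (mm10_ENSMUSG00000020048) encodes GRP94, the HSP90 of the ER. It stood at 1239.5 and 1626 CPM in T-like cells and at 1731 and 2396 CPM in B-like cells, and both B-like values were above both T-like values. The log2 fold change was 0.48 ± 0.08 (SE) with adjusted p = 5.67e-09. Without the block the value was 0.48 and was not called (adjusted p = 0.166).

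The lectin chaperones, which hold glycoproteins that carry a single terminal glucose, are encoded by Calr and Canx. Calr (mm10_ENSMUSG00000003814), the soluble calreticulin, stood at 492 and 771 CPM in T-like cells and at 735 and 1109 CPM in B-like cells, and the classes overlapped because T-like cells in library 300 were above B-like cells at 150. Within each library B-like cells were higher, with a log2 ratio of 0.58 (95% interval 0.35 to 0.81) in library 150 and 0.52 (0.44 to 0.61) in library 300. The fitted log2 fold change of Calr was 0.50 ± 0.10 (SE) with adjusted p = 6.83e-07, a call lost without the block (adjusted p = 0.161). Canx (mm10_ENSMUSG00000020368), the membrane-bound calnexin, stood at 843 and 891 CPM in T-like cells and at 908 and 967 CPM in B-like cells. Its log2 fold change was 0.07 ± 0.09 (SE) and was not called (adjusted p = 0.535), although both B-like values were above both T-like values.

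The protein disulfide isomerases, which form and rearrange disulfide bonds, were called in both directions. Pdia4 (mm10_ENSMUSG00000025823, ERp72) stood at 140.0 and 163 CPM in T-like cells and at 283 and 364 CPM in B-like cells, a log2 fold change of 1.08 ± 0.13 (SE) with adjusted p = 3.77e-16. P4hb (mm10_ENSMUSG00000025130), the classical disulfide isomerase and also a subunit of collagen prolyl hydroxylase, stood at 118 and 198 CPM in T-like cells and at 269 and 355 CPM in B-like cells, a log2 fold change of 0.89 ± 0.13 (SE) with adjusted p = 1.97e-11. Pdia6 (mm10_ENSMUSG00000020571, P5) stood at 381 and 432 CPM in T-like cells and at 637 and 657 CPM in B-like cells, a log2 fold change of 0.61 ± 0.11 (SE) with adjusted p = 3.37e-08. For these genes both B-like values were above both T-like values.

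Pdia3 (mm10_ENSMUSG00000027248, ERp57), which works on glycoproteins together with calnexin and calreticulin, went the other way. It stood at 799 and 666 CPM in T-like cells and at 619 and 574 CPM in B-like cells, and both T-like values were above both B-like values. The log2 fold change was -0.32 ± 0.10 (SE) with adjusted p = 0.00281, and 29.4% of all genes tested were called higher in T-like cells. By library the log2 ratio was -0.37 (95% interval -0.59 to -0.15) in library 150 and -0.21 (-0.32 to -0.11) in library 300. The call was lost without the block (adjusted p = 0.293), without the filter on low counts (0.0588) and by DESeq2 (0.222), while the sign did not change.

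**Figure D2:**
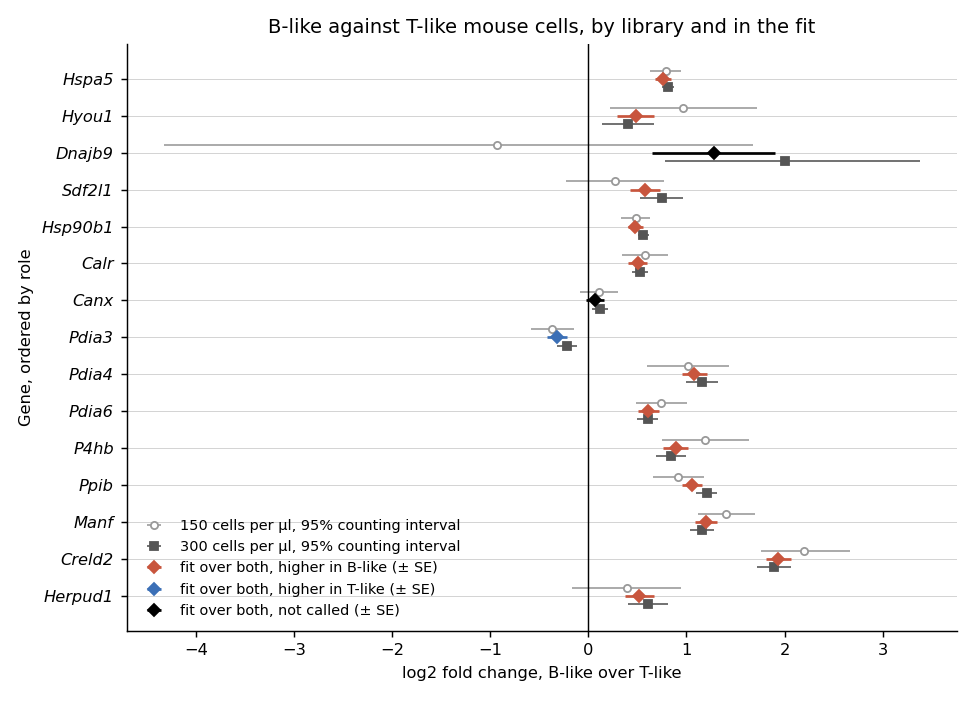
Log2 fold change of the 15 mouse genes, B-like over T-like. Grey symbols are the ratio of CPM within each library with 95% counting intervals, and diamonds are the edgeR fit over both libraries (TMM scaled) ± SE, with Pdia3 at -0.32 and Creld2 at 1.93 as the called genes at either end.

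Ppib (mm10_ENSMUSG00000032383) encodes cyclophilin B, the prolyl isomerase of the ER lumen. It stood at 355 and 366 CPM in T-like cells and at 670.5 and 844 CPM in B-like cells, a log2 fold change of 1.06 ± 0.11 (SE) with adjusted p = 2.26e-22 and a 2.08-fold higher level in B-like cells. Both B-like values were above both T-like values.

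Of the remaining stress-induced genes, Creld2 and Manf had the largest changes among the 13 called genes of the set. Creld2 (mm10_ENSMUSG00000023272), a luminal protein induced by ER stress, stood at 92.2 and 122 CPM in T-like cells and at 424 and 455 CPM in B-like cells. Its log2 fold change was 1.93 ± 0.13 (SE) with adjusted p = 6.66e-49, a 3.82-fold higher level. Manf (mm10_ENSMUSG00000032575), which binds BiP in the lumen and can be secreted, stood at 253 and 299 CPM in T-like cells and at 668 and 668 CPM in B-like cells, a log2 fold change of 1.20 ± 0.11 (SE) with adjusted p = 2.87e-26. In both genes every B-like value was above every T-like value. Herpud1 (mm10_ENSMUSG00000031770), a membrane protein of the HRD1 complex that degrades misfolded ER proteins, stood at 97.3 and 125 CPM in T-like cells and at 128 and 190.1 CPM in B-like cells, and the lower B-like value lay just above the higher T-like value. The log2 fold change of Herpud1 was 0.52 ± 0.15 (SE) with adjusted p = 0.00137, a call lost without the block (adjusted p = 0.121) and by DESeq2 (0.329).

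Shares of cells with at least 1 UMI were taken from cells thinned to a depth of 2000 UMIs, which left out 7 T-like cells and 1 B-like cell in library 300. For Creld2 the share was 14.6% and 22.1% of T-like cells and 33.3% and 56.1% of B-like cells. Before thinning it was 63.4% and 55.6% against 96.3% and 88.7%. Thinned shares of Manf were 53.7% and 36.5% against 85.2% and 62.0%, and without thinning they were 100% and 85.3% against 100% and 92.8%. Hspa5 was found in 80.5% and 87.1% of thinned T-like cells and in 96.3% and 93.2% of thinned B-like cells (in 99.1% to 100% of cells of either class before thinning). As a background, mouse Creld2 was found in 1.15% and 2.83% of human cells and mouse Hspa5 in 11.5% and 16.04%, at median depths of 6383 and 3713.5 UMIs.

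Single cells were then described by the sum of the 15 genes, with each cell thinned to 2000 UMIs by a random draw. Per 2000 UMIs, the median T-like cell held 12 and 13 UMIs of the 15 genes, and the median B-like cell 15 and 19. The variance over the mean was 1.66 and 1.99 in T-like cells and 2.91 and 5.49 in B-like cells, where 1 is the value of pure counting error. The classes overlapped, since 17 of 27 and 179 of 221 B-like cells were above the T-like median and 9 of 41 and 36 of 340 T-like cells were above the B-like median.

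**Figure D3:**
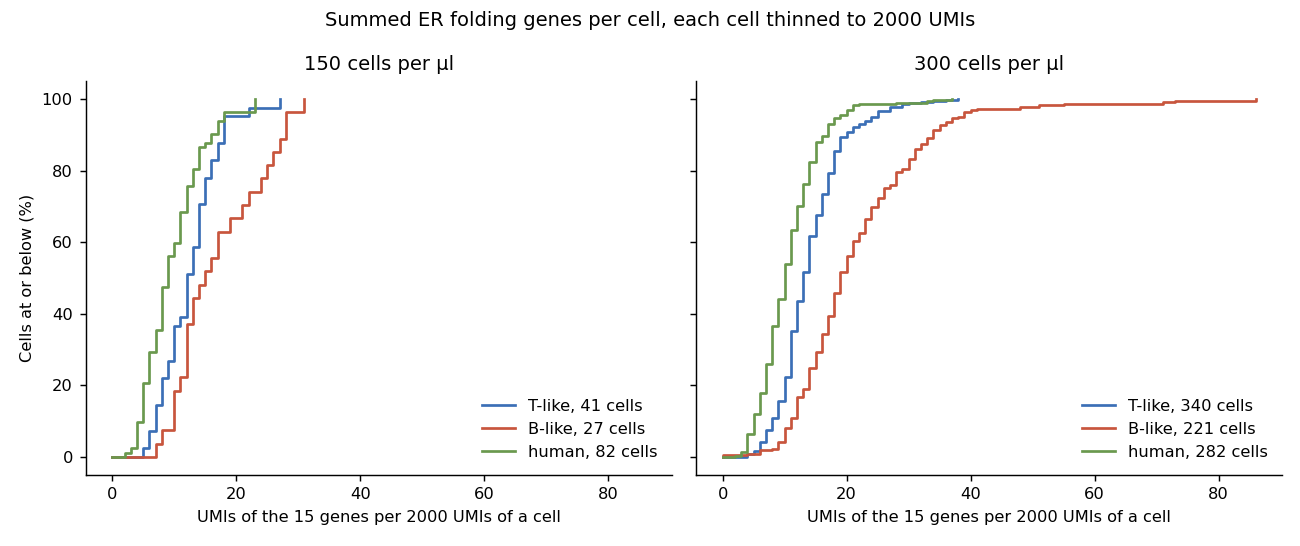
Cumulative share of cells (%) against the UMIs of the 15 genes per 2000 UMIs of a cell, for T-like, B-like and human cells in each library. The B-like curve lies to the right in both libraries. In the random draw of 2000 UMIs from each cell it reaches 86 UMIs in library 300, where the highest T-like cell has 38. Before thinning, the highest shares in that library were 337 (B-like) and 211 (T-like) per 10000 mouse UMIs.

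Some B-like cells of library 300 were rich in ER folding transcripts. The share of the 15 genes ran from 0 to 337 per 10000 mouse UMIs over B-like cells, with a median of 100.1, and 8 of 222 cells exceeded 200. Among T-like cells of the same library it ran from 24.6 to 211, with a median of 67.6, and 1 of 347 exceeded 200. In library 150 the highest B-like cell had 164 and the highest T-like cell 107. Over the 222 B-like cells the share had a Spearman correlation of 0.0243 with the cell's UMIs and of 0.0893 with its share of mitochondrially encoded transcripts, which all come from 1 library.

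Correlations between the genes over cells are given as a description, since the cells share a library and its depth. In library 300, in 221 thinned B-like cells, the Spearman correlation of a gene with the sum of the other 14 was 0.51 for Hspa5, 0.49 for Hsp90b1 and 0.40 for Calr. In 340 T-like cells of that library the same values were 0.17, 0.14 and 0.07. In library 150, with 27 B-like and 41 T-like cells, Hspa5 had nearly the same value in both classes (0.26 and 0.26), while Hsp90b1 had 0.62 and 0.12 and Calr 0.54 and -0.11. The highest pair in B-like cells of library 300 was Hspa5 with Hsp90b1 (0.41), and the median over all pairs was 0.0755. Canx (0.18), Hyou1 (0.10) and Herpud1 (0.03) had lower values in the B-like cells of library 300, and in library 150 they had -0.00, 0.21 and 0.33. Their thinned means in those B-like cells of library 300 were 1.82, 0.23 and 0.41 UMIs, against 4.42 for Hspa5 and 4.61 for Hsp90b1. In T-like cells of that library Hspa5 and Hsp90b1 had means of 2.43 and 3.16. The part of these low counts in the correlations was not tested. In the B-like cells of library 300, Hspa5 and Hsp90b1 also had the highest variance of the set relative to the mean, at 2.69 and 2.66, against 1.64 and 1.69 in T-like cells.

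One shallow mouse cluster stood apart from both named classes in these genes as a description. Cluster 6 had 8 and 29 cells, with median depths of 1613 and 1380 UMIs, and clustering had not used the ER genes. It was left unnamed because it was shallow and had none of its class's markers among its 10 leading genes. The named clusters 2, 4 and 7 also had 0 such markers, so depth decided. Cluster 6 held 101 B cell marker UMIs (without Jchain) and 23 T cell marker UMIs. Its sum over the 15 genes was 239.7 (215 to 266) and 210.4 (198 to 223) per 10000 mouse UMIs, which was 2.66 (2.38 to 2.97) and 1.93 (1.81 to 2.05) times the B-like value. Among the named clusters the highest value was 113 (110.5 to 115), and the other shallow cluster, number 5, stood at 62.3 and 81.2. The cluster was singled out after its values were seen, and cells of 1 library are not replicates, so no test was made.

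By gene, the ratios in cluster 6 were as follows. The ratio to B-like cells was 4.07 (3.27 to 5.02) and 2.70 (2.38 to 3.04) for Hspa5, 5.38 (2.03 to 12.1) and 4.30 (2.67 to 6.62) for Hyou1, 2.86 (2.22 to 3.65) and 2.26 (1.998 to 2.55) for Hsp90b1 and 2.43 (1.64 to 3.48) and 1.71 (1.36 to 2.13) for Canx. Manf was at 0.722 (0.288 to 1.51) and 1.05 (0.734 to 1.46) and Ppib at 1.54 (0.852 to 2.58) and 0.947 (0.678 to 1.29). Herpud1 was at 0.539 (0.0134 to 3.13) and 0.821 (0.352 to 1.63) and Creld2 at 1.63 (0.767 to 3.06) and 1.41 (0.968 to 1.999). The intervals of these last genes, Manf, Ppib, Herpud1 and Creld2, included 1 in both libraries. Dnajb9 had 0 UMIs in the cluster, and B-like cells had 2 and 22. Of the ER lists outside the set, N-glycosylation genes were at 1.82 and 1.76, degradation genes were at 1.66 and 1.25, and translocon genes were at 1.45 and 1.10 times the B-like level. The other chaperones were at 1.11 and 1.23 times and the UPR list at 1.14 and 1.03 times that level. Mitochondrially encoded transcripts made up 10.1% and 6.68% of mouse UMIs in cluster 6, against 1.35% and 1.20% in B-like and 0.927% and 0.814% in T-like cells. Human UMIs made up 2.64% and 2.13% of the cluster's UMIs, against 0.337% and 0.506% in B-like cells. The part of depth, mitochondrial transcripts and human UMIs in the result was not tested. B cell markers were at 0.931 and 0.684 times the B-like level there, and T cell markers stood at 276 and 370.5 CPM.

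**Figure D4:**
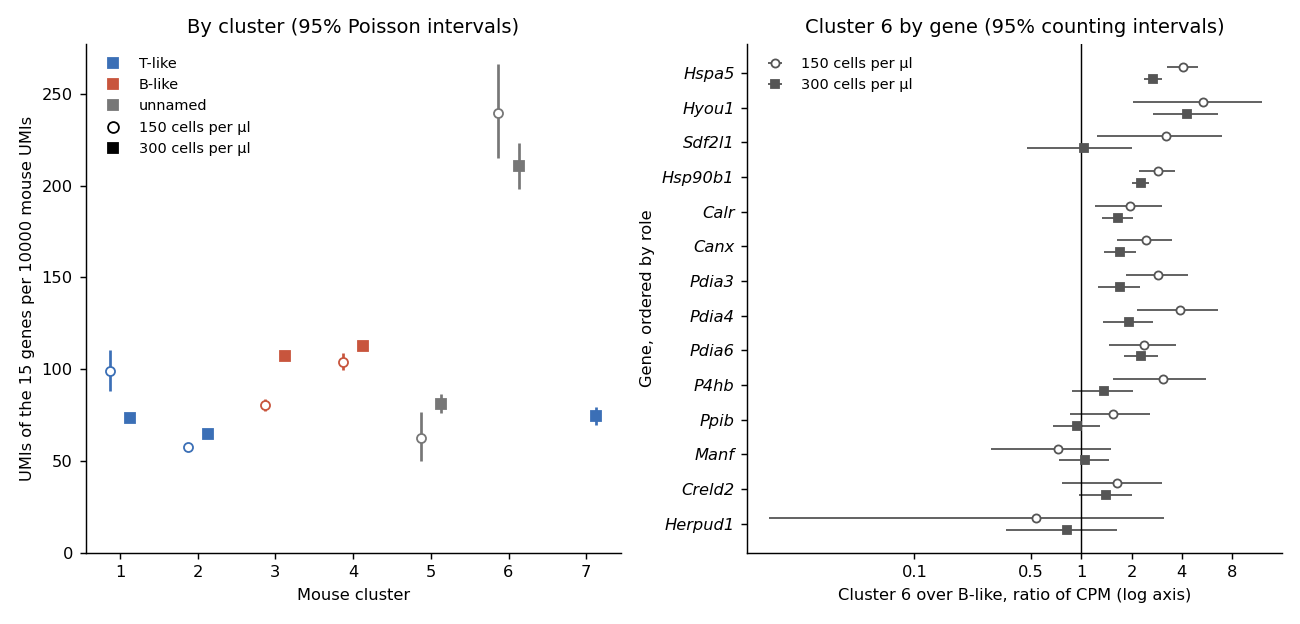
UMIs of the 15 genes per 10000 mouse UMIs by mouse cluster and library with 95% Poisson intervals (left), and the ratio of CPM in cluster 6 to B-like cells for each gene but Dnajb9 on a log axis with 95% counting intervals (right). Cluster 6 lies at 239.7 and 210.4, above every other cluster, and Manf, Ppib, Creld2 and Herpud1 have intervals that include 1 in both libraries.

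Other ER genes were read in the same fit, from 5 lists. Of 12 UPR sensors and transcription factors 10 were tested, and 8 were higher in B-like cells, with a median log2 fold change of 0.85, beside 27.2% of all genes tested. Without the block 4 of the 10 were called (18.8% of all genes), and by DESeq2 2 of the 10 (11.1% of all genes). Xbp1, the UPR transcription factor that plasma cells need, had 51.2 and 74.2 CPM in T-like cells and 431 and 579 CPM in B-like cells (log2 fold change 2.95 ± 0.14 (SE), adjusted p = 5.08e-97). The mRNA of IRE1, Ern1, had 1 and 3 UMIs in T-like cells and 4 and 36 in B-like cells (log2 fold change 3.70 ± 0.70 (SE), adjusted p = 6.31e-07), and the call was lost by DESeq2 (adjusted p = 0.118). The value of Ern1 was 2.24 in library 150 alone and 3.88 in library 300 alone. Ern1 passed the filter on low counts only through its B-like sums, so its call adds no support to the list's count. Creb3l2, a membrane-anchored transcription factor of the secretory pathway, had 1.71 and 7.89 CPM in T-like cells and 31.4 and 56.5 CPM in B-like cells (log2 fold change 2.89 ± 0.32 (SE), adjusted p = 2.68e-18), with 4.03 in library 150 alone and 2.78 in library 300 alone. Of the other sensors, the mRNA of PERK, Eif2ak3, had 30.7 and 23.4 CPM in T-like cells and 47.1 and 43.6 CPM in B-like cells. It was called higher (log2 fold change 0.80 ± 0.24 (SE), adjusted p = 0.00258). Atf6 went the other way, with 147 and 156 CPM in T-like cells against 110 and 135 CPM in B-like cells. It was not called (log2 fold change -0.30 ± 0.15 (SE), adjusted p = 0.0785). The counts do not separate spliced from unspliced Xbp1.

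Atf4 and Ddit3 act downstream of PERK. Atf4 had 191 and 271 CPM in T-like cells and 193 and 419 CPM in B-like cells (log2 fold change 0.43 ± 0.12 (SE), adjusted p = 0.00127). The call of Atf4 was lost without the block (adjusted p = 0.357) and by DESeq2 (0.438), and in library 150 alone the value was -0.05. Ddit3, which encodes the pro-apoptotic factor CHOP, had 25.6 and 18.0 CPM in T-like cells and 11.2 and 13.3 CPM in B-like cells and was not called (log2 fold change -0.63 ± 0.37 (SE), adjusted p = 0.130), with -1.24 in library 150 alone and -0.46 in library 300 alone. Atf3 and Bhlha15 were too low to be tested. Bhlha15, a transcription factor of secretory cells, had 0 UMIs in T-like cells of both libraries and 2 and 36 UMIs in B-like cells.

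Of 18 genes of the translocon and signal peptidase, which bring nascent chains into the ER and trim them, 17 were tested. In B-like cells 10 were higher (median log2 fold change 0.45), beside 27.2% of all genes tested. Without the block 6 of the 17 were called higher, beside 18.8% of all genes. The largest changes were in subunits of the translocon-associated protein complex. Ssr4 had 222 and 229 CPM in T-like cells and 931 and 736 CPM in B-like cells (log2 fold change 1.78 ± 0.11 (SE), adjusted p = 3.18e-56). Ssr2 and Ssr1 had log2 fold changes of 1.62 and 1.45. Ssr3, of the same complex, was not called (log2 fold change 0.17 ± 0.13 (SE), adjusted p = 0.294). The remaining 7 did not pass the test.

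All 14 genes of N-glycosylation and glycan trimming were tested, with 10 higher and 1 lower in B-like cells (median log2 fold change 0.54), beside 27.2% of all genes called higher. Without the block 3 of the 14 were higher, a share near the 18.8% of all genes, and by DESeq2 4 of the 14 were, beside 11.1% of all genes. Rpn2, a subunit of oligosaccharyltransferase, had 234 and 220.0 CPM in T-like cells and 839 and 853 CPM in B-like cells (log2 fold change 1.87 ± 0.11 (SE), adjusted p = 8.47e-62). Krtcap2, another subunit, and Mogs, the glucosidase that removes the outermost glucose, had log2 fold changes of 1.05 and 1.02. The value of Mogs rested on 4 and 40 UMIs in T-like cells and 3 and 62 in B-like cells, and was -0.08 in library 150 alone. Its call was lost without the block (adjusted p = 0.131) and by DESeq2 (0.757). Stt3b, a catalytic subunit of oligosaccharyltransferase and the gene called lower, had 97.3 and 124 CPM in T-like cells and 67.3 and 101 CPM in B-like cells (log2 fold change -0.38 ± 0.17 (SE), adjusted p = 0.0453), a call lost under 6 of the alternatives.

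Of 16 genes of ER-associated degradation 15 were tested. In B-like cells 10 were higher (median log2 fold change 0.56), beside 27.2% of all genes tested. By DESeq2 4 of the 15 were called higher, beside 11.1% of all genes. Edem2, which starts mannose trimming of misfolded glycoproteins, had 29.0 and 30.3 CPM in T-like cells and 195 and 189 CPM in B-like cells (log2 fold change 2.62 ± 0.19 (SE), adjusted p = 1.21e-41). Derl1, a channel component, and Syvn1, the ubiquitin ligase HRD1, had log2 fold changes of 1.52 and 1.43, and that of Syvn1 was not called by DESeq2 (adjusted p = 0.346). For Syvn1 the value was 0.33 in library 150 alone and 1.72 in library 300 alone.

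Of 20 other ER chaperones, oxidases and retrieval receptors 19 were tested, with 11 higher and 2 lower in B-like cells (median log2 fold change 0.56). The count higher in B-like cells was 7 without the block (18.8% of all genes) and 4 by DESeq2 (11.1% of all genes). Fkbp11, a prolyl isomerase found in secretory cells, had 0 and 5 UMIs in T-like cells and 34 and 147 in B-like cells (log2 fold change 5.58 ± 0.40 (SE), adjusted p = 1.60e-42). In library 300 alone the value of Fkbp11 was 5.25, and no fold is given for library 150, where T-like cells had 0 UMIs. Fkbp11 passed the filter on low counts only through its B-like sums, so its call adds no support to the list's count. Erp29, a luminal chaperone with a thioredoxin fold, had 108 and 152 CPM in T-like cells and 1099 and 1152 CPM in B-like cells (log2 fold change 3.01 ± 0.11 (SE), adjusted p = 1.14e-145). Txndc11 had a log2 fold change of 1.36 and was not called by DESeq2 (adjusted p = 0.106). The genes called lower were Dnajc3, a J-domain cochaperone of BiP, at -1.10, and Tmx1, a membrane-bound disulfide isomerase, at -1.01, both named after their values were seen. Across the 5 lists the shares called higher in B-like cells ran from 57.9% to 80%, against 27.2% of all genes tested. The lists too were chosen with earlier results of these data known, so these shares are a description.

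**Figure D5:**
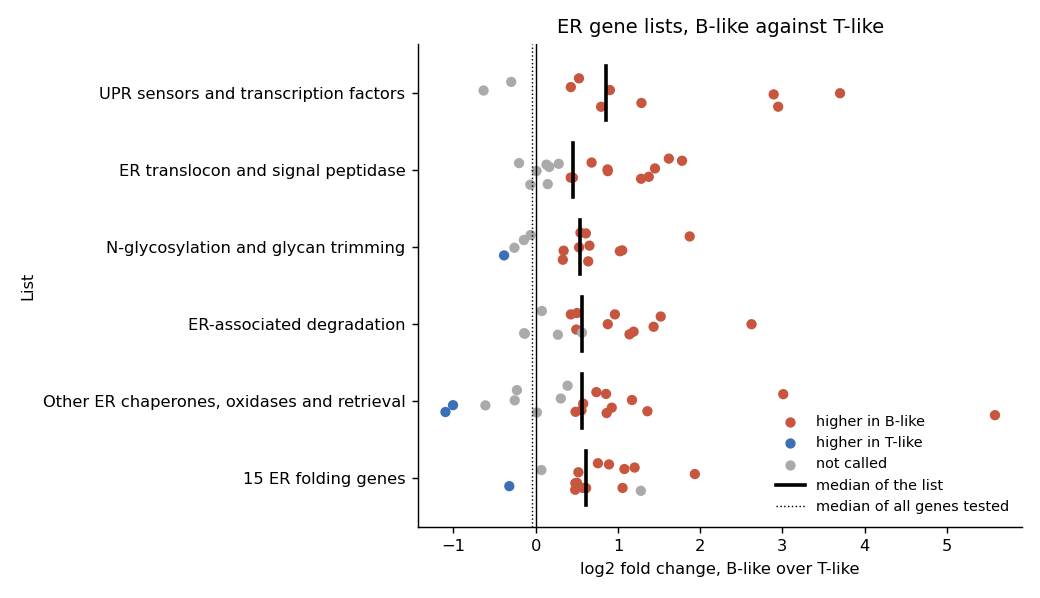
Log2 fold change, B-like over T-like, of each tested gene in the 5 ER lists and in the 15 folding genes, with the list's median as a bar and the median of all genes tested (-0.04) as a dotted line. Red points were called higher in B-like cells, blue points higher in T-like cells and grey points were not called, and the medians run from 0.45 to 0.85.

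In human cells the mixture held T lines only, so no human T against B comparison was possible. The 15 human genes summed to 50.5 (95% Poisson interval 48.8 to 52.3) and 56.6 (95% Poisson interval 55.3 to 57.9) per 10000 human UMIs. The median human cell, thinned to 2000 UMIs, held 9 and 10 UMIs of the set (5 and 36 cells were too shallow), and the variance over the mean was 2.26 and 2.26. Human and mouse values are over the UMIs of different genomes and are set side by side only.

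By role, HSPA5 (hg19_ENSG00000044574) stood at 696 and 936 CPM, HYOU1 at 102 and 91.3 CPM and SDF2L1 at 110.3 and 126 CPM. DNAJB9 had 10 and 9 UMIs in all. HSP90B1 stood at 650.4 and 651 CPM, while its mouse orthologue stood at 1239.5 and 1626 CPM in T-like cells. CALR stood at 899 and 1140.2 CPM, and mouse Calr at 492 and 771 CPM in T-like cells. In both libraries the human value was the higher one for CALR and the mouse T-like value the higher one for HSP90B1.

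The other human genes filled a wide range. CANX stood at 725 and 783 CPM, PDIA3 at 464 and 427, PDIA6 at 378 and 354 and PPIB at 433 and 417. PDIA4 (162 and 179.6), P4HB (143 and 251) and MANF (175 and 199) came next, in CPM. CRELD2 stood at 48.7 and 42.3 CPM and HERPUD1 at 51.9 and 51.3 CPM. Before thinning, in library 300, CRELD2 was found in 16.04% of human cells and CALR in 94.3%, while human CRELD2 was found in 0% of T-like and B-like cells and human CALR in 3.75% of T-like and 4.505% of B-like cells.

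Transcripts of the other species gave the background. Mouse cells held 0.195 to 0.275 UMIs of the human set per cell, and 19.5% to 22.2% of them held at least 1. Human cells held 0.782 and 1.25 UMIs of the mouse set per cell, and 51.7% and 63.5% held at least 1. Per 10000 mouse UMIs found in human cells the mouse set took 64.2 and 79.4, which lies between the T-like and B-like values of each library.

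The libraries were then compared within each class, with no test since each concentration had 1 library. The log2 ratio of library 300 to library 150 for the summed set was 0.23 (0.18 to 0.28) in T-like cells, 0.28 (0.23 to 0.33) in B-like cells and 0.16 (0.10 to 0.22) in human cells, with 95% counting intervals. All genes with at least 100 UMIs had medians of 0.13, 0.14 and 0.0791 on the same scale. Their 5th to 95th percentiles ran from -0.58 to 0.85 in T-like, -0.68 to 0.93 in B-like and -0.55 to 0.70 in human cells. TMM scaling between the libraries shifted every ratio by -0.15, -0.18 and -0.14.

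Calr and P4hb were among the genes higher in library 300 in each class. Calr had a log2 ratio of 0.65 (0.47 to 0.83) in T-like, 0.59 (0.43 to 0.76) in B-like and, as CALR, 0.34 (0.20 to 0.49) in human cells. For P4hb the ratios were 0.75 (0.39 to 1.13), 0.40 (0.12 to 0.69) and 0.82 (0.47 to 1.17). Of these ratios of Calr and P4hb, only that of human P4HB lay outside the percentile range of all genes given above. Pdia3 was lower in each class, at -0.26 (-0.41 to -0.12), -0.11 (-0.30 to 0.08) and -0.12 (-0.33 to 0.09), with intervals that included 0 in B-like and human cells. T-like cells came mostly from cluster 2 in library 150 (39 of 41) and from cluster 1 in library 300 (211 of 347), and within cluster 2 the summed set stood at 57.5 and 64.9 per 10000. B-like clusters 3 and 4 stood at 80.5 and 104 in library 150 and at 107 and 113 in library 300.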

How the data were processed

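UMI counts per gene and barcode were deposited by the authors as 1 table per library, raw and not normalized. The tables held 2000 and 4000 barcodes with 2398956 and 8707135 UMIs. The study's methods give Drop-seq tools with STAR alignment, and the submitters' processing notes list Cell Ranger 1.2.0, STAR 2.4.2a, hg19 and mm10. Whether reads were downsampled for these tables is not given in the sources used here.

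Genes are listed by Ensembl identifier. Those of the 15 genes per species define the set, and those of markers, ER lists and mitochondrially encoded genes were written by hand, because the gene table used here holds no Ensembl identifiers. Trac, Trbc2, Ighm, Igkc and Cd83 of mouse were not analysed here, so the planned exclusion of immunoglobulin genes left out the J chain gene only. The members and lists were chosen with earlier results of these data known.

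Cells had at least 1000 UMIs and 90% of 1 species. No doublet caller was run. Mouse cells were clustered (the 2000 genes of highest variance among those seen in 10 or more cells, 15 principal components, 15 neighbours, leidenalg 0.10.2 at resolution 0.5, Python 3.11.15). The choice of variable genes and the rule that left 133 shallow cells unnamed (median UMIs below one in 3 of the library's mouse median and no own marker among the 10 leading genes) were settled after the clusters were seen. Marker sums gave 633 of 637 named cells the same class. The other genes of the fit include those used for clustering.

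UMIs were summed per class and library and tested with edgeR 4.0.16 (R 4.3.3) by the quasi-likelihood test, with TMM, filterByExpr, Benjamini-Hochberg adjustment at 0.05, and the library as a block. The block pairs classes because both come from the same run. The code was tested on simulated data. CPM are UMIs per 1000000 UMIs of the cell's species, with no correction for length. Intervals are exact (Poisson, Clopper-Pearson or conditional binomial) at 95% and cover counting error only. Alternatives were DESeq2 1.42.0 and its size factors, no filter, no block, 2000 UMIs, 95% purity, classes by marker sums, no J chain gene, each library alone, equal weight per cell, TMM between libraries, thinning to 1000 UMIs and, added after seeing the data, the shallow clusters joined to the classes. All 15 genes were named, with the 3 tested genes of largest change in each list, and Xbp1, Atf4 and Ddit3. The sensor genes Eif2ak3 and Atf6 were added later.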

Additional observations from a re-analysis of the deposited data

Results flagged for a closer look

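ER folding transcripts were also counted in barcodes outside the T-like, B-like and human cells. Barcodes under 1000 UMIs held 3509 mouse and 1038 human UMIs of the set at 150 cells per µl, and 10893 mouse and 1613 human UMIs at 300 cells per µl. Per 10000 mouse UMIs this was 74.1 and 85.1, which lies between the T-like and B-like values of the same library. Barcodes with at least 1000 UMIs of mixed species held 102 mouse and 94 human UMIs at 150 cells per µl, and 972 mouse and 617 human UMIs at 300 cells per µl. The unnamed shallow mouse cells, which include the cluster set beside B-like cells above, held 436 and 2033 mouse UMIs of the set, or 152 and 120.5 per 10000. The mixture has no control library, and these counts were not tested against a background.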

How the results depend on the processing

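Without the block that pairs the classes by library, 7 of the 15 genes were called higher in B-like cells in place of 12, and the calls of Hsp90b1, Calr, Herpud1, Sdf2l1 and Hyou1 were lost, as was that of Pdia3. The counts higher in B-like cells without the block, beside 18.8% of all genes, were 4 of 10 for the UPR list, 6 of 17 for the translocon list, 3 of 14 for N-glycosylation and 7 of 19 for the other chaperones. By DESeq2's Wald test, with 1898 of all genes called in place of 5019 and 11.1% called higher in B-like cells, they were 2 of 10 for the UPR list, 4 of 14 for N-glycosylation, 4 of 15 for ER-associated degradation and 4 of 19 for the other chaperones, and 9 of the 15 genes, with Herpud1, Sdf2l1 and Hyou1 lost. The count of the 15 genes higher in T-like cells was 0 by DESeq2 and without the block (0 at an unadjusted p under 0.05 in both) and 0 without the filter on low counts (1 unadjusted, by edgeR). The count of N-glycosylation genes higher in T-like cells was 0 with DESeq2 size factors, by marker sums and with the shallow clusters joined to the classes (1 unadjusted in each, by edgeR), and 0 by DESeq2, without the filter and without the block (0 unadjusted). The cause of each loss was not tested.

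Each library alone gave values with no test. Without the library at 300 cells per µl, log2 fold changes reversed for Dnajb9 (-0.97, and 1.90 without the other library), Mogs (-0.0806 and 1.13) and Atf4 (-0.0483 and 0.60). Weighting cells equally moved the ratio of the summed set at 300 cells per µl to 1.51, and 95% purity moved the human sum at 300 cells per µl to 58.0 per 10000. TMM scaling between libraries moved the log2 ratio of 300 to 150 cells per µl to 0.0775 in T-like, 0.0919 in B-like and 0.0219 in human cells. The counts of the 15 genes were 12 higher and 1 lower with DESeq2 size factors, 2000 UMIs, 95% purity, marker sums, the J chain gene left out and the shallow clusters joined. Every p-value rests on 2 libraries.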
